A study of Saccharomyces cerevisiae with 104 samples.

Results

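The genes described here encode the 10 subunits that belong to RNA polymerase III alone in the budding yeast Saccharomyces cerevisiae. They were chosen by name, by a rule that uses no measured value, although with earlier results of these data known. All 10 were present among the 7108 genes of each RNA-seq table, of which 5989 are nuclear protein-coding genes. They lie on 6 chromosomes, and their spans run from 333 to 4383 bp. None was listed at 0 in any library.

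RNA polymerase III transcribes the transfer RNA genes, the 5S ribosomal RNA and a few other short, structured RNAs, among them the U6 spliceosomal RNA and the RNA of the signal recognition particle. Its 2 largest subunits form the catalytic cleft, and a stalk sits beside them. A TFIIF-like pair and a TFIIE-like trio are permanent subunits here, whereas RNA polymerase II uses separate factors. TFIIIC and TFIIIB bring the enzyme to its genes, and the repressor Maf1 shuts it down under nutrient and stress signals. The messengers for its subunits are themselves made by RNA polymerase II, whose stalling after acute hydrogen peroxide stress is the subject of the series.

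The series holds 104 samples, of which 100 are ChIP-exo samples that were not analysed here and 4 are RNA-seq libraries of total RNA, named library 1 to library 4. The labels attach growth at 25 °C and exposure to 0.3 mM H2O2 for 6 min to every sample alike, and for the RNA-seq libraries they name no strain, mark none as untreated and give no replicate structure. No library could be assigned to a condition, so each is described on its own, without replicate error and without tests. Wherever 4 values follow a gene they belong to libraries 1, 2, 3 and 4 in turn, and the numbers are only names.

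TPM, a length-normalised abundance that sums to a fixed total per library, is set by all RNA in a library. The protein-coding genes held 46.9, 12.2, 21.2 and 5.77% of TPM in libraries 1 to 4, so each subunit gene is given first as deposited TPM and then as its relative level, meaning its TPM divided by the TPM of the median nuclear protein-coding gene of that library. That median gene stood at 40.2, 7.50, 17.6 and 3.59 TPM, with a coverage (mean read depth per base) of 12.8, 3.70, 8.17 and 2.26. The ratio is free of the share taken by ribosomal RNA. It compares levels between genes per unit of length, and in bulk RNA fewer cells of a type and less RNA per cell cannot be told apart.

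As a group, the RNA polymerase III subunit genes sat close to the median gene. Their median relative level was 1.13, 1.09, 1.29 and 0.963 in libraries 1 to 4, at a median percentile of 55.1, 53.4, 60.7 and 47.7 among protein-coding genes. The number of subunit genes above the median gene was 7, 5, 7 and 5 of 10, against 50% of all protein-coding genes by construction; the share equalled that background in libraries 2 and 4 and was 2 genes above it in libraries 1 and 3. The subunit genes differed from each other in level, with RPC11 the lowest in every library. The highest exceeded the lowest by 5.54-fold in library 1, 5.13-fold in library 2, 4.96-fold in library 3 and 4.53-fold in library 4. Summed TPM of the 10 genes was 644.5, 84.5, 279 and 40.02, which is 0.137, 0.0691, 0.132 and 0.0693% of the TPM of protein-coding genes.

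**Figure D1:**
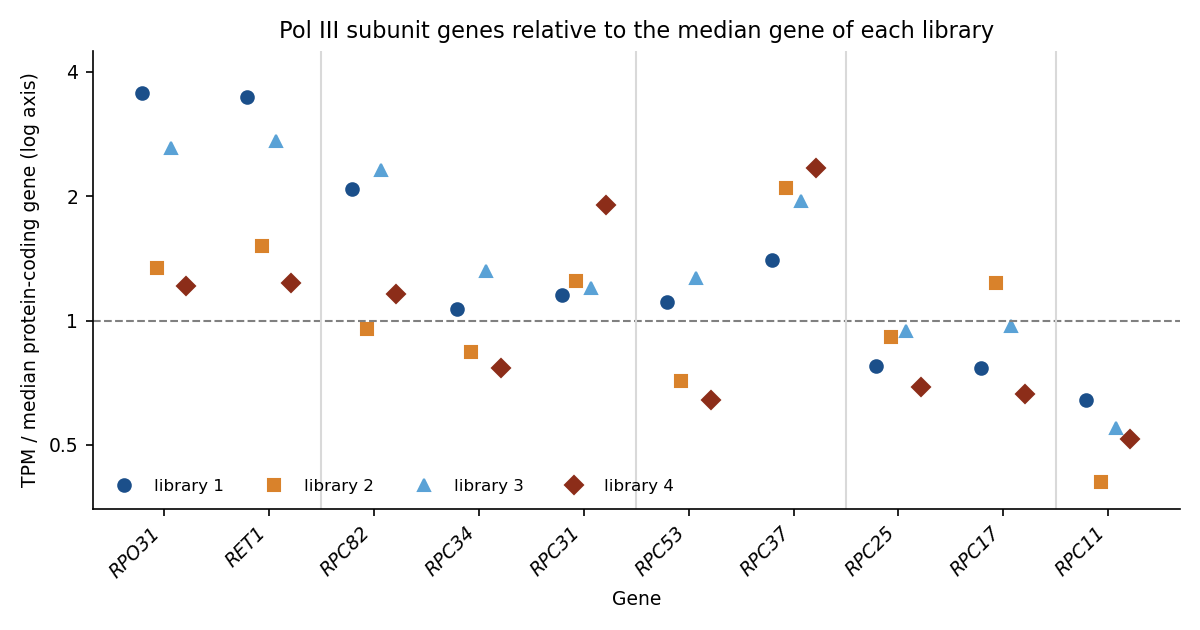
TPM of each of the 10 RNA polymerase III subunit genes divided by that of the median nuclear protein-coding gene (vertical log axis, no unit), with one point per library and grey lines between subunit groups. RPO31 and RET1 lie between 1.21 and 3.55, RPC37 lies above 1 in every library and RPC11 lies below 1 in every library.

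Depth differed strongly between the libraries and limits the short genes most. A coverage of at least 10 was reached by 7, 0, 6 and 0 of the 10 subunit genes, beside 59.3, 17.4, 41.5 and 9.92% of all protein-coding genes. In genes with fewer than 170 covered bases (coverage times span), the 4 most frequent totals were 36, 40, 76 and 152 bases in every library, so a read pair appears to be worth about 76 bases, although no read length is given in the labels. At that worth the values of RPO31 rest on about 2612, 287, 1231 and 158 pairs, and those of RPC11 on about 35.9, 6.62, 19.7 and 5.11 pairs. Small differences in library 4, and any value of RPC11 in libraries 2 and 4, are therefore poorly determined.

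Coordinates are those of the deposited tables, on build sacCer3, and all 10 starts equal those of the RefSeq table. The catalytic cleft is built by RPO31 (YOR116C, chromosome 15, 539763 to 544145, minus strand), the largest subunit C160, and RET1 (YOR207C, chromosome 15, 730008 to 733457, minus strand), the second largest subunit C128, whose mutants read through terminators. RPO31 had 143, 10.1, 45.997 and 4.37 TPM in libraries 1 to 4, and a relative level of 3.55, 1.34, 2.61 and 1.21. RET1 had 139.5, 11.4, 48.05 and 4.44 TPM, and a relative level of 3.47, 1.51, 2.73 and 1.23. Both were the 2 highest of the 10 genes in libraries 1 and 3, well above most protein-coding genes in library 1 (percentiles 89.5 and 89.2), and were closer to the median gene in libraries 2 and 4 (percentiles between 58.2 and 66.8).

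The trio C82, C34 and C31 binds the clamp of the enzyme and takes part in opening DNA at the start site, where C34 contacts the TFIIIB subunit Brf1. RPC82 (YPR190C, chromosome 16, 917077 to 919041, minus strand) encodes its largest part and had 83.9, 7.16, 40.8 and 4.17 TPM, a relative level of 2.09, 0.955, 2.32 and 1.16. RPC34 (YNR003C, chromosome 14, 634344 to 635297, minus strand) had 42.9, 6.31, 23.2 and 2.76 TPM, a relative level of 1.07, 0.841, 1.32 and 0.767. Both genes thus stood higher against the median gene in libraries 1 and 3 than in libraries 2 and 4. RPC31 (YNL151C, chromosome 14, 347766 to 348521, minus strand), the gene of the acidic subunit C31, did not show this: it had 46.4, 9.37, 21.1 and 6.85 TPM, and its relative level of 1.15, 1.25, 1.20 and 1.90 was highest in library 4.

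C53 and C37 form a TFIIF-like pair that is needed to recognise terminators and, with C11, to re-initiate on the same gene. RPC53 (YDL150W, chromosome 4, 183343 to 184611, plus strand) had 44.6, 5.36, 22.3 and 2.31 TPM, a relative level of 1.11, 0.715, 1.27 and 0.641. RPC37 (YKR025W, chromosome 11, 487770 to 488618, plus strand) had 56.5, 15.7, 34.3 and 8.40 TPM, a relative level of 1.41, 2.09, 1.95 and 2.34. The partners differed: RPC53 was below the median gene in libraries 2 and 4, where RPC37 was the highest of the 10 genes.

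The stalk of C25 and C17 takes part in initiation. RPC25 (YKL144C, chromosome 11, 175843 to 176481, minus strand) had 31.3, 6.84, 16.6 and 2.49 TPM, and its relative level of 0.778, 0.911, 0.945 and 0.693 lay below the median gene in every library. RPC17 (YJL011C, chromosome 10, 414285 to 414770, minus strand) had 30.8, 9.23, 17.1 and 2.39 TPM, a relative level of 0.767, 1.23, 0.970 and 0.666, above the median gene in library 2 alone.

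C11 gives the enzyme its RNA cleavage activity. Its gene RPC11 (YDR045C, chromosome 4, 547978 to 548310, minus strand) is the shortest of the 10 and was the lowest of them in each of the 4 libraries. It had 25.8, 3.06, 9.70 and 1.86 TPM, a relative level of 0.641, 0.408, 0.551 and 0.516, or percentiles of 34.05, 19.2, 28.7 and 26.3.

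In 8 of the 10 genes no other listed gene overlaps the span. RPC53 shares 557 bases with the opposite-strand reading frame YDL151C, which was listed at 24.5, 0.954, 10.7 and 0.609 TPM, and RPC34 covers YNR003W-A, 99 bases on the opposite strand, which was listed at 0 in all 4 libraries. Whether strand was used in counting is not given in the sources used here, so reads of RPC53 and YDL151C cannot be told apart in the bases they share.

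Ratios between partner genes within a library do not depend on a scaling factor of the library. The pairs were chosen after values were seen. No ratios between other genes were computed as a background, so the spans below describe these pairs only. The cleft genes stayed close: RPO31 over RET1 was 1.02, 0.887, 0.957 and 0.985, a span of 1.15-fold between the highest and the lowest library. The stalk ratio of RPC25 over RPC17 was 1.01, 0.740, 0.974 and 1.04, a span of 1.41-fold, but with each gene set against genes of its own length class it was 0.572, 0.607, 0.657 and 0.919. RPC37 over RPC53 was 1.27, 2.93, 1.53 and 3.64, a span of 2.88-fold. RPC53 shares 557 bases with YDL151C, and the effect of this overlap on the ratio was not tested. In the trio, RPC82 over RPC34 was 1.95, 1.13, 1.76 and 1.51 (1.72-fold), and 1.70, 1.44, 1.85 and 1.90 with length classes. RPC82 over RPC31 was 1.81, 0.764, 1.93 and 0.609 (3.17-fold), and RPC34 over RPC31 was 0.926, 0.673, 1.10 and 0.403 (2.72-fold). The 3 wide ratios all involve RPC37 or RPC31, and in all 3 libraries 1 and 3 lay on one side and libraries 2 and 4 on the other. In library 4, RPC31 rested on about 42.8 read pairs, RPC34 on 21.7 and RPC53 on 24.2, and without replicates no error can be put on these ratios.

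**Figure D2:**
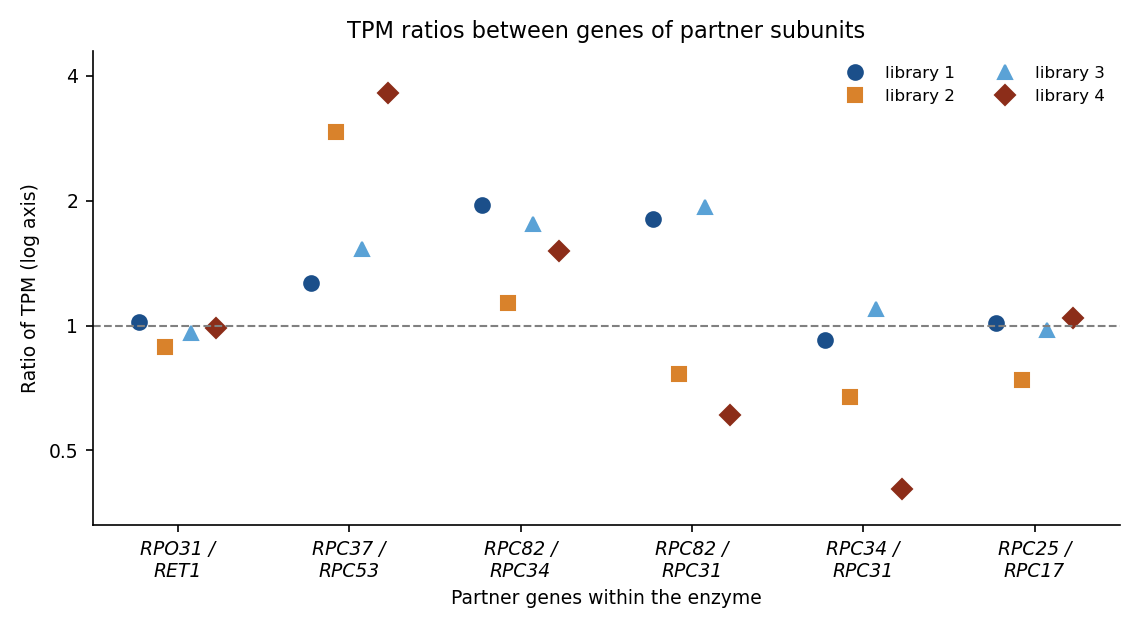
Ratio of TPM between genes whose products are partners in the enzyme (vertical log axis, no unit), with one point per library. RPO31 over RET1 stays between 0.887 and 1.02, while RPC37 over RPC53 lies between 1.27 and 3.64.

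The range of each gene over the 4 libraries was taken as the difference between its highest and lowest log2 relative level, with 1 added to the TPM of the gene and of the median gene. RPO31 had a range of 1.58, RET1 of 1.53 and RPC82 of 1.23, so 3 of the 10 subunit genes spanned at least 2-fold. Among all 5667 protein-coding genes with a median of at least 1 TPM, 37.4% did so. The other 7 lay between 0.32 for RPC25 and 0.80 for RPC53, and the median range was 0.69 for the subunit genes beside 0.81 for all genes. Which of the 2 shares is larger depends on the setting. Against genes of the same length class RPC11 joined the 3, making 4 of 10 subunit genes beside 30.3% of all genes, with a median range of 0.85 beside 0.72. The values of RPC11 in libraries 2 and 4, its lowest by this measure, rest on only about 6.62 and 5.11 read pairs. Without library 1 the count was 3 beside 26.3% of all genes, without library 2 it was 2 (RPO31 and RET1) beside 29.8%, without library 3 it was 3 beside 34%, and without library 4 it was 3 beside 29.3%.

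**Figure D3:**
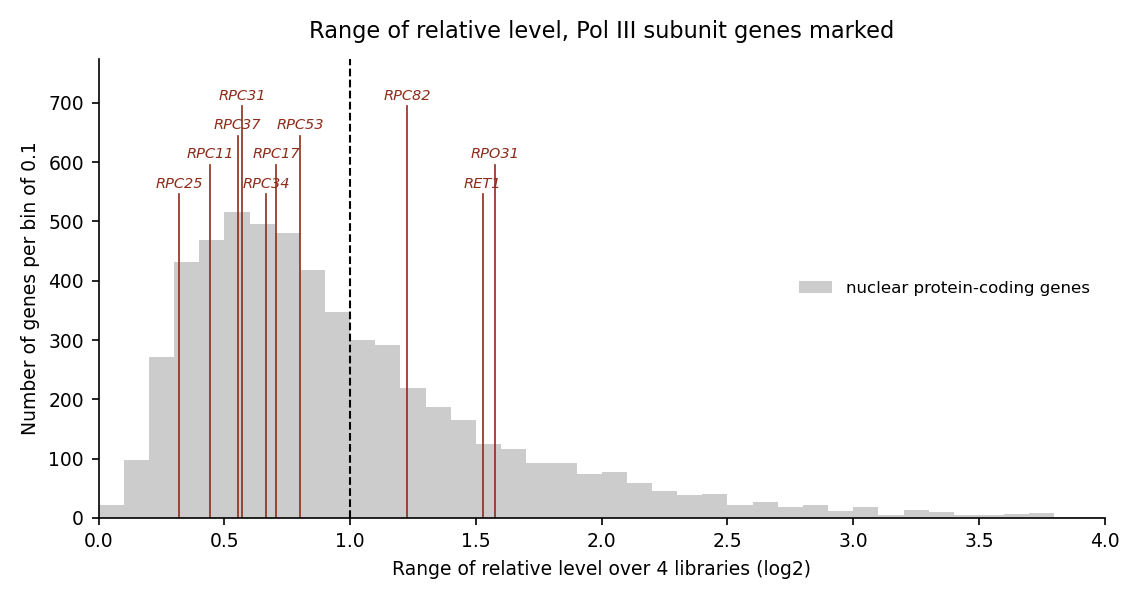
Histogram of the range of log2 relative level over the 4 libraries for 5667 nuclear protein-coding genes (number of genes per bin of 0.1), with the 10 subunit genes marked by lines and the 2-fold limit dashed. RPC82, RET1 and RPO31 lie beyond the limit at 1 and the other 7 lie below it; 22 genes beyond 4 are off the axis.

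By library pair, the subunit genes that differed at least 2-fold in relative level were RPO31, RET1 and RPC82 for libraries 1 and 2, beside 25.5% of all genes. None of the 10 did so for libraries 1 and 3 (3.04% of all genes), nor for libraries 2 and 4 (3.72%). RPO31 and RET1 did so for libraries 1 and 4 (26.8% of all genes) and for libraries 3 and 4 (18.8%), and RPC82 did so for libraries 2 and 3 (19.9%). In these 4 pairs the gene stood higher in library 1 or 3. The order of the 10 genes was most alike between libraries 1 and 3 (Spearman correlation 0.93) and between libraries 2 and 4 (0.88), and lay between 0.64 and 0.73 for the other 4 pairs. These correlations run across 10 genes of one enzyme and describe the libraries only. Some neighbours in the order were almost equal, such as RPO31 and RET1 in library 1 (1.02-fold) or RPC25 and RPC17 in library 4 (1.04-fold), and their order has no support from replicates.

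At 5 positions a subunit of RNA polymerase III alone has a related counterpart in RNA polymerases I and II. Subunits shared between the enzymes were not counted. At these 5 positions, chosen after their values were seen, the RNA polymerase III gene was mostly the lower one. Against RNA polymerase II it was lower in 19 of 20 gene and library combinations, with a median ratio of 0.536, and against RNA polymerase I in 20 of 20, with a median ratio of 0.469. The largest subunit gene RPO31 had 143, 10.1, 45.997 and 4.37 TPM, against 223, 30.9, 72.1 and 12.7 TPM for RPO21 of RNA polymerase II and 288, 25.3, 81.97 and 8.92 TPM for RPA190 of RNA polymerase I. RET1 reached 0.636, 0.636, 0.589 and 0.433 of RPB2, and 0.526, 0.379, 0.562 and 0.392 of RPA135. In the stalk, RPC25 reached 0.551, 0.372, 0.626 and 0.271 of RPB7, and 0.371, 0.523, 0.475 and 0.462 of RPA43. RPC17 reached 0.529, 1.15, 0.588 and 0.544 of RPB4, the exception being library 2, and 0.716, 0.397, 0.681 and 0.227 of RPA14.

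Against RNA polymerase II the ratio was lowest in every library for the zinc-ribbon subunits, which serve RNA cleavage or proofreading in each enzyme. RPC11 had 25.8, 3.06, 9.70 and 1.86 TPM, against 119, 10.7, 66.96 and 10.01 TPM for RPB9 and 50.6, 11.2, 25.1 and 10.9 TPM for RPA12. RPC11 over RPB9 was 0.217, 0.286, 0.145 and 0.185, and RPC11 over RPA12 was 0.509, 0.272, 0.386 and 0.171. In libraries 2 and 4 RPC11 rested on about 6.62 and 5.11 read pairs, so its ratios there are poorly determined. These 3 genes are of like length, RPC11 with 333 bp, RPB9 with 369 bp and RPA12 with 378 bp. The 20 combinations are not independent, since they come from 5 genes and 4 libraries. They also leave out the TFIIF-like pair, which RNA polymerase I holds as RPA49 and RPA34. RPC53 lay below both of these genes in every library. RPC37 had 56.5, 15.7, 34.3 and 8.40 TPM, against 88.9, 17.98, 33.3 and 7.25 TPM for RPA34 and 104, 18.98, 38.8 and 6.90 TPM for RPA49. RPC37 thus exceeded RPA34 in libraries 3 and 4 and RPA49 in library 4, so the tally depends on the positions counted.

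**Figure D4:**
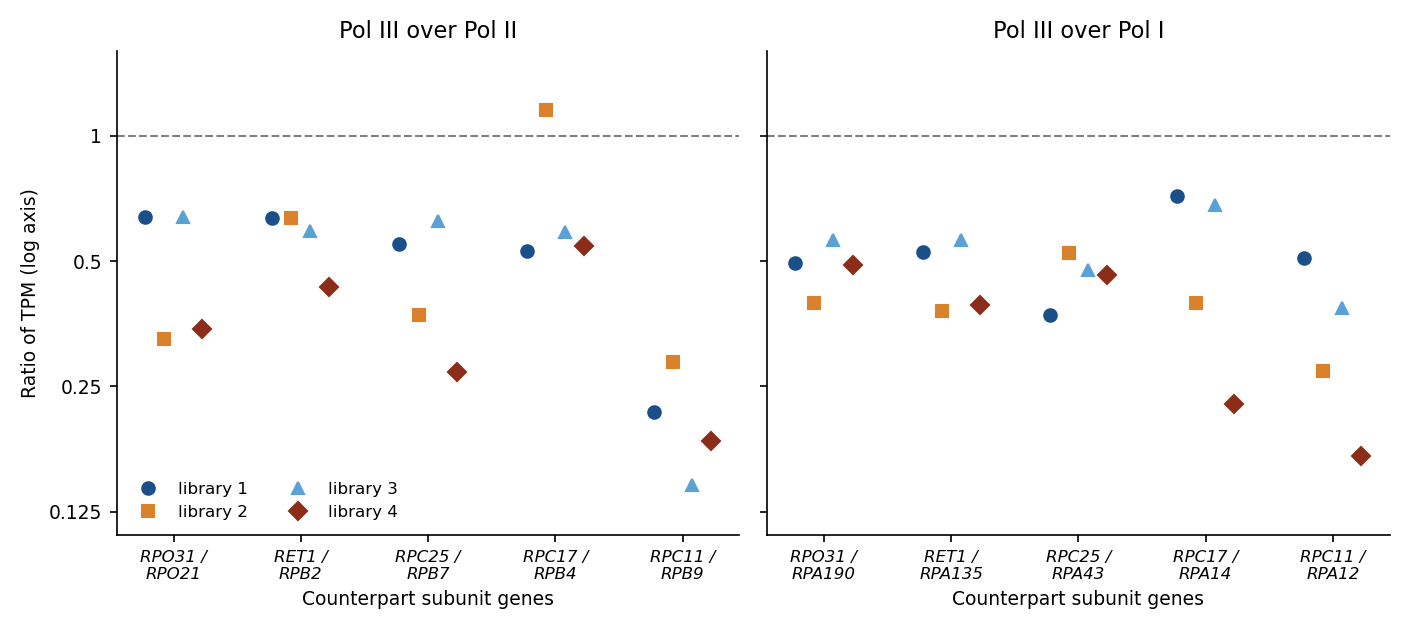
TPM of 5 RNA polymerase III subunit genes divided by that of their counterpart in RNA polymerase II (left) and RNA polymerase I (right), on a log axis with no unit and one point per library. All points but RPC17 over RPB4 in library 2 (1.15) lie below 1, and in the left panel RPC11 over RPB9 is the lowest ratio of each library, between 0.145 and 0.286. RPC11 rested on about 6.62 and 5.11 read pairs in libraries 2 and 4.

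Seen over whole lists, the 7 genes specific to RNA polymerase II had a median relative level of 2.95, 2.35, 3.04 and 2.56. Beside 50% of all protein-coding genes by construction, 6, 7, 6 and 7 of these 7 stood above the median gene. By their medians over the libraries RPO21 was the highest of these and RPB11 the lowest, with a relative level of 0.465, 2.03, 0.542 and 1.24 for RPB11, which also had the widest range. The 7 genes specific to RNA polymerase I had a median relative level of 2.21, 2.53, 1.99 and 2.48. Against the same 50%, all 7 stood above the median gene in every library. RPA190 had the widest range of these (7.16, 3.38, 4.66 and 2.48), and by their medians over the libraries RPA135 was the highest (6.60, 3.99, 4.86 and 3.15) and RPA12 the lowest (1.26, 1.497, 1.43 and 3.03).

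RNA polymerase III shares 7 further subunits with the other enzymes, AC40 and AC19 with RNA polymerase I and another 5 with both. Their genes had a median relative level of 1.77, 3.48, 2.32 and 4.85. Against 50% of all protein-coding genes, 5, 7, 7 and 7 of the 7 stood above the median gene. RPC40, the gene of AC40, was the highest by its median over the libraries, with 5.44, 5.25, 6.02 and 4.90. RPC19, the gene of its partner AC19, was the lowest with 0.809, 1.23, 1.01 and 1.46. RPB10, a short gene for a subunit of all 3 enzymes, had the widest range with 1.67, 3.81, 3.15 and 6.77.

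Genes for the initiation factors TFIIIA, TFIIIB and TFIIIC and for Maf1 had a median relative level of 0.974, 0.764, 0.927 and 0.744. The number above the median gene was 5, 4, 4 and 3 of 11, beside 50% of all protein-coding genes. With 1 added to TPM none of the 11 spanned 2-fold, beside 37.4% of all genes. The TFIIIB gene BDP1 (1.51, 1.36, 1.56 and 1.73) and MAF1 (1.15, 1.10, 1.11 and 1.59) were above the median gene in every library. The highest was SPT15, which encodes the TATA-binding protein used by all 3 enzymes, with 3.89, 3.34, 3.73 and 3.49. By its median over the libraries the lowest was TFC8, which encodes a TFIIIC subunit, with 0.868, 0.414, 0.874 and 0.439.

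Relative level followed gene length more closely in libraries 1 and 3. Across the 10 subunit genes the Spearman correlation of length with relative level was 0.90, 0.41, 0.93 and 0.44 in libraries 1 to 4, while across all 5989 protein-coding genes it was 0.23, -0.02, 0.09 and -0.06. Long genes in general stood higher in library 1: protein-coding genes of 2100 bp or more had a median relative level of 1.29, 0.924, 1.04 and 0.885, and those of up to 621 bp had 0.557, 0.970, 0.740 and 1.06. Set against the median of genes in its own length class, RPO31 stood at 2.74, 1.45, 2.501 and 1.37, RET1 at 2.68, 1.64, 2.61 and 1.39 and RPC82 at 1.83, 1.02, 2.22 and 1.22, so the 3 longest genes were still higher in libraries 1 and 3. RPC11 stood at 1.15, 0.420, 0.744 and 0.488 of its length class, above it in library 1, and RPC17 at 1.38, 1.27, 1.31 and 0.629. The part of length in the differences between libraries beyond these values was not tested.

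**Figure D5:**
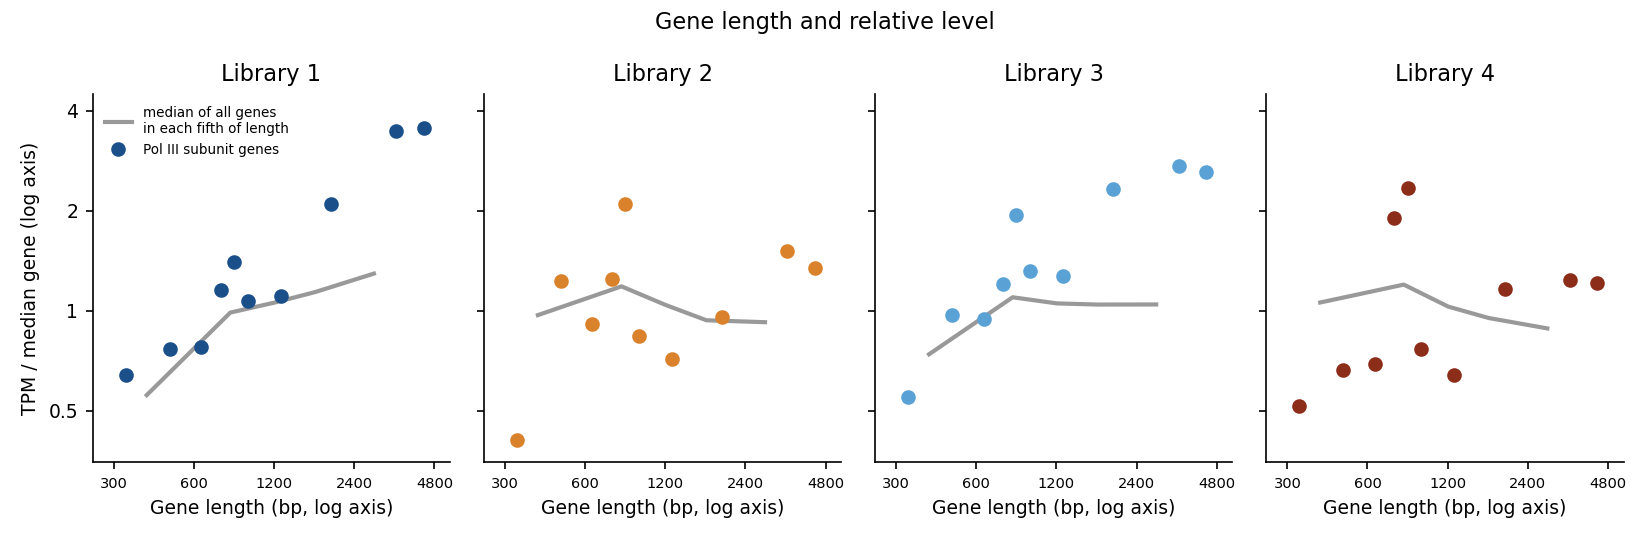
Relative level (vertical log axis, no unit) against gene length (horizontal log axis, bp) of the 10 subunit genes, one panel per library, with a grey line through the medians of all protein-coding genes in 5 length classes. The points climb with length in libraries 1 and 3 (Spearman correlations 0.90 and 0.93), and scatter in libraries 2 and 4, where the 2 highest points are RPC37 and RET1 and RPC37 and RPC31.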

How the data were processed

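Each RNA-seq library had a table of gene abundances with coverage, FPKM and TPM. The authors deposited coverage (a signal of mean read depth), FPKM and TPM, as the file headers name them. Within a table the 3 were constant multiples of each other for the subunit genes, so relative levels from coverage and TPM are the same. The genome build was sacCer3, per the submitters' processing notes, which also name BWA, Picard and SAMtools for all samples. The abundance estimator and strandedness are not given in the sources used here. Read counts were not used, so no sampling intervals are given.

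Protein-coding genes were taken from a RefSeq table (assembly R64), which matched 6011 of 7108 identifiers. Values were computed in pandas 2.3.3 and numpy 2.4.6 under Python 3.11.15, correlations in scipy 1.17.1, and plots drawn in matplotlib 3.10.9. The subunit genes and comparison lists were chosen with earlier results of these data known. Beside the 10 subunit genes, the highest, lowest and widest-ranging member of each other list was named, with the 3 genes nearest in profile. BDP1 and MAF1 were named outside this rule, for lying above the median gene in every library. Counterpart and partner pairs were chosen after seeing values. Alternatives were pseudocounts of 0.1, 1 and 5, yardsticks of expressed genes or of 5 length classes, median-ratio scaling, minimum medians of 1 and 10 TPM, and each library left out.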

Additional observations from a re-analysis of the deposited data

How the results depend on the processing

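The median relative level of the subunit genes moved by less than its spread over the libraries under each other yardstick and pseudocount and with coverage, and lay between 0.905 and 1.29 in all of them. Pseudocounts and coverage cannot move a single value across the median gene, so only the yardsticks of expressed genes and of length classes could. With expressed genes all 40 single values stayed on their side. Under the length-class yardstick 4 changed side (RPC82 in library 2, RPC17 in libraries 1 and 3 and RPC11 in library 1). The count of genes above the yardstick was then 9, 6, 8 and 5 in place of 7, 5, 7 and 5. The median of a length class leaves about 50% of its genes above it by construction. The number spanning 2-fold was 3 with pseudocounts of 0.1 and 5 (beside 42.6 and 32.1% of all genes) and with median-ratio scaling (beside 37.3%). It was also 3 with a minimum median of 1 or 10 TPM (beside 37.4 and 33.8% of the genes at that minimum). With length classes it was 4 (RPC11 added, beside 30.3% of all genes in place of 37.4%). With a library left out it was between 2 and 3 (beside 26.3 to 34% of all genes), RPC82 being lost without library 2. The share of TPM depends on the total: 0.0645, 0.00845, 0.0279 and 0.00400% of all TPM, and 0.137, 0.0691, 0.132 and 0.0693% of protein-coding TPM. The alternatives for counterparts, chosen after seeing the data, left 19 and 20 of 20 in place, but few could have changed these counts. A pseudocount keeps the order of 2 genes in a library, and so does the yardstick for genes of the same length class. Only RPC25 with RPB7 and RPC17 with RPB4 differ in length class. The 20 of 20 against RNA polymerase I could therefore not change. The stalk ratio of RPC25 over RPC17 became 0.572, 0.607 and 0.657 in libraries 1 to 3 with length classes. No paired analysis was possible because the labels give no groups. Depth limits RPC11, RPC17 and RPC25 in libraries 2 and 4 most.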

Other observations

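The profile of the median subunit gene over the 4 libraries (relative levels of 1.13, 1.07, 1.28 and 0.959 with 1 added to TPM) was shared by many other genes. The 3 nearest protein-coding genes by Euclidean distance of log2 relative level over the 4 libraries were YDL144C at a distance of 0.13 (44.4, 8.10, 24.9 and 3.45 TPM), RAD2 at 0.14 (48.3, 7.94, 21.1 and 3.34 TPM) and TLG1 at 0.17 (49.4, 7.78, 21.1 and 3.52 TPM). RPC34, the subunit gene nearest to this profile, lay at 0.41, and 133 other genes were nearer. RET1, the farthest, lay at 1.98.

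On the deposited TPM scale the difference between libraries was not the same for all subunit genes. TPM in library 1 over that in library 4 was 32.7 for RPO31, 31.5 for RET1, 20.1 for RPC82 and 19.4 for RPC53. It was 15.6 for RPC34, 13.9 for RPC11, 12.9 for RPC17 and 12.6 for RPC25. RPC31 had 6.78 and RPC37 had 6.73, beside 11.2 for the median gene. In relative level only RPO31 and RET1 differed at least 2-fold between these libraries, beside 26.8% of all genes. Libraries 1 and 3 and libraries 2 and 4 lay together in the relative level of RPO31 (3.55 and 2.61 against 1.34 and 1.21) and RET1 (3.47 and 2.73 against 1.51 and 1.23). Over all genes, the shares that differed at least 2-fold showed the same pairing. They were 3.04% between libraries 1 and 3 and 3.72% between libraries 2 and 4, against 18.8 to 26.8% for the other pairs. Single genes did not all follow it, such as RPC17 with a relative level of 0.767, 1.23, 0.970 and 0.666. Libraries 1 and 3 also had the higher coverage of the median gene (12.8 and 8.17 against 3.70 and 2.26). The labels give no grouping of this kind.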
